A study of Mus musculus with 12 samples.

Results

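Krt6a, Krt6b, Krt16 and Krt17 are the stress or wound keratins of mouse skin, and they were chosen by gene name, as 4 of the 34303 gene symbols measured and 4 of the 50 keratin genes among them. Keratins form the intermediate filaments of epithelial cells, and each filament pairs a type II keratin (Krt6a, Krt6b) with a type I keratin (Krt16, Krt17). In healthy skin these genes are known from the hair follicle, nail and footpad, while the epidermis between the follicles makes little of them. After wounding, after ultraviolet damage and in squamous tumours keratinocytes are known to switch them on.

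Expression was measured by RNA sequencing in 12 libraries from C57Bl6 mice. TAp63 names the forms of p63 with an N-terminal transactivation domain; TAp63-/- mice lack them and wild-type (WT) mice have them. The groups were TAp63-/- cutaneous squamous cell carcinoma (cSCC, n = 4), WT cSCC (n = 2), TAp63-/- skin (n = 3) and WT skin (n = 3). The tumour-bearing mice were older than 35 weeks and had been irradiated with ultraviolet light 3 times weekly at a dose of 2.5 kJ/m2. The skin donors were 4 weeks old, and the labels list no radiation for them. Each sample title holds a bracketed code of its own that begins with WT or TA. The labels do not say what the codes stand for or whether each library came from its own animal. The p-values thus measure the spread between these samples, which may be technical. Tissue therefore goes together with age and radiation, and every change between tumour and skin includes them.

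Levels are given in FPKM, fragments per kilobase scaled by library size, a unit inferred from the tools and the values. All 12 libraries shared a single distribution of values, as after quantile normalization, so each value also depends on its rank in the library. Ratios between genes and shares of summed FPKM are shaped by this and are approximate. Read depth is unknown and no counting error is given. By Xist and Y-linked genes, 5 tumours read as female, while TAp63-/- cSCC replicate 1 and the 6 skin libraries read as male. Sex thus also goes together with tissue, fully so in WT mice, and changes between tumour and skin include it. The sample titles begin with LM for all tumours and with Su for all skin libraries, and the labels name no batch. The value of Trp63, the targeted gene, ranged over 84.45 to 257.8 FPKM in the 12 libraries. That value adds up TA and ΔN isoforms and cannot show whether TAp63 was lost. The epithelial panel held 10 genes: Cdh1, Dsp, Jup, Perp, Pkp3, Esrp1, Esrp2, Grhl2, Trp63 and Krt5. It thus includes the targeted gene and a keratin that shares windows with Krt6a. The panel averaged 6.84 to 7.86 on the log2(FPKM + 1) scale in TAp63-/- cSCC and 7.45 to 7.52 in WT cSCC. In skin it averaged 6.94 to 7.14 in TAp63-/- and 7.12 to 7.24 in WT libraries. In bulk tissue, fewer cells of a type and less RNA per cell cannot be told apart.

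The genes lie in both keratin clusters of the genome. Krt6b (ENSMUSG00000023041, mm10 chr15:101676034-101680289) and Krt6a (ENSMUSG00000058354, chr15:101689932-101694307) are neighbours on chromosome 15, and Krt16 (ENSMUSG00000053797, chr11:100246091-100248902) and Krt17 (ENSMUSG00000035557, chr11:100256217-100261029) are neighbours on chromosome 11. All 4 are protein-coding genes on the minus strand in the GENCODE M21 annotation. The sequences bear on how far reads of one member can be told from those of another. Krt6a and Krt6b were 97.8% identical over 1662 aligned coding bases, and 43.6% of the 2229 windows of 50 bases in the Krt6a transcript also occurred in Krt6b. Seen from Krt6b the share was 44.5% of 2186 windows. The split between Krt6a and Krt6b is therefore uncertain wherever reads fell in shared stretches. Krt5, the basal type II keratin, held 6.73% of the Krt6a windows and 2.24% of the Krt6b windows. The coding stretch of 90 bases with no difference is shown first, for Krt6a at chr15:101694126-101694215 and Krt6b at chr15:101680101-101680190, minus strand, GRCm38. The stretch with the most differences, 12 of 90, follows for Krt6a at chr15:101692484-101692573 and for Krt6b at chr15:101678303-101678392, with the bases that differ in capitals.
Krt6a and Krt6b: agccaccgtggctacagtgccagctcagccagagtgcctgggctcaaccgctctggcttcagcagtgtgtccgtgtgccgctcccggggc
Krt6a: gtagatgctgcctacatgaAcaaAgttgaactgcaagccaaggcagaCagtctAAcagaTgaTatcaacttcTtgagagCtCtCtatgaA
Krt6b: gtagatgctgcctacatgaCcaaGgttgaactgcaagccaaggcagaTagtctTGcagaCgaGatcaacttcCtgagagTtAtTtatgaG

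Krt16 and Krt17 were less alike, with 75.3% identity over 1296 aligned coding bases and 0.396% of 1516 Krt16 windows present in Krt17. Each was closer to Krt14, the basal type I keratin, with 85.5% identity for Krt16 and 83.0% for Krt17. Of the Krt16 windows 12.4% occurred in Krt14, and of the 1502 Krt17 windows 3.66%. The most alike coding stretch of Krt16 (chr11:100248456-100248545) and Krt17 (chr11:100260618-100260707), minus strand, still held 4 differences in 90 bases, shown in capitals.
Krt16: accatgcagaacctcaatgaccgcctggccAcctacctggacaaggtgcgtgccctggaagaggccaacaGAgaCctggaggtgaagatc
Krt17: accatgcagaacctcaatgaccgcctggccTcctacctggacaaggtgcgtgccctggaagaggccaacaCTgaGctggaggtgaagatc

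Krt6a, Krt6b and Krt16 were far higher in tumours than in skin of the same genotype, whereas Krt17 was high in both tissues and did not pass the test. Changes in TAp63-/- mice and in WT mice are those of cSCC against skin of that genotype, on the log2(FPKM + 1) scale. Krt6b had the largest change of the 4 and Krt16 the next.

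Krt6a encodes the type II keratin 6A. It had 2685, 1461, 3696 and 3262 FPKM in TAp63-/- cSCC, 3855 and 8072 in WT cSCC, 37.9, 86.2 and 161 in TAp63-/- skin, and 313.8, 126.7 and 67.5 in WT skin. Each tumour lay above each skin library, and the WT skin library with most Krt6a lay at 313.8 FPKM, below the lowest tumour at 1461. The share of all tested genes that separate tumours from skin in this way was not counted. The log2 change was 5.0 (SE 0.59, limma adjusted p = 0.000183) in TAp63-/- mice, a 32.0-fold difference, and 5.31 (SE 0.71, adjusted p = 0.00136) in WT mice, 39.8-fold.

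Krt6b encodes its near-copy keratin 6B. It had 2545, 1699, 4268 and 2875 FPKM in TAp63-/- cSCC, 1969 and 11167 in WT cSCC, 1.78, 8.05 and 9.06 in TAp63-/- skin, and 22.5, 9.08 and 3.45 in WT skin. In 5 tumours Krt6b was close to or above Krt6a, in WT cSCC replicate 1 it was well below, and in every skin library it was the lowest of the 4. Its log2 change was 8.74 (SE 0.70, adjusted p = 2.07e-05), 427-fold, in TAp63-/- mice and 8.85 (SE 0.84, adjusted p = 0.00029), 461-fold, in WT mice. With Krt6a and Krt6b summed, which sidesteps their split, the change was 5.93 (SE 0.63, adjusted p = 9.88e-05) in TAp63-/- mice and 6.15 (SE 0.76, adjusted p = 0.00097) in WT mice. The sum does not remove any reads shared with Krt5.

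Krt16 encodes the type I keratin 16, a partner of keratin 6 in wounded epidermis. It had 1554, 1210, 2437 and 1620 FPKM in TAp63-/- cSCC, 1085 and 3493 in WT cSCC, 3.87, 19.8 and 10.7 in TAp63-/- skin, and 27.3, 13.2 and 6.73 in WT skin. Tumour and skin libraries did not overlap in either genotype, and the share of all tested genes without overlap was not counted. The log2 change was 7.29 (SE 0.57, adjusted p = 1.86e-05), 156-fold, in TAp63-/- mice and 7.06 (SE 0.69, adjusted p = 0.000309), 134-fold, in WT mice. The part of reads shared with Krt14 in this change was not tested.

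Krt17 encodes the type I keratin 17, which is also made in the follicle's outer root sheath. It had 879.5, 633.4, 545.4 and 1525 FPKM in TAp63-/- cSCC, 474.5 and 1847 in WT cSCC, 383.8, 523.2 and 770.8 in TAp63-/- skin, and 945.6, 675 and 477.1 in WT skin. Tumour and skin ranges overlapped in both genotypes. The log2 change was 0.62 (SE 0.49, 95% interval -0.47 to 1.71, adjusted p = 0.377) in TAp63-/- mice and 0.48 (SE 0.59, 95% interval -0.82 to 1.78, adjusted p = 0.644) in WT mice. These intervals exclude changes of the size seen for the other 3 genes but not a change of up to 1.71 or 1.78. Both WT tumours lay far apart, and the WT value was -0.50 when replicate 2 was left out and 1.46 when replicate 1 was left out.

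**Figure D1:**
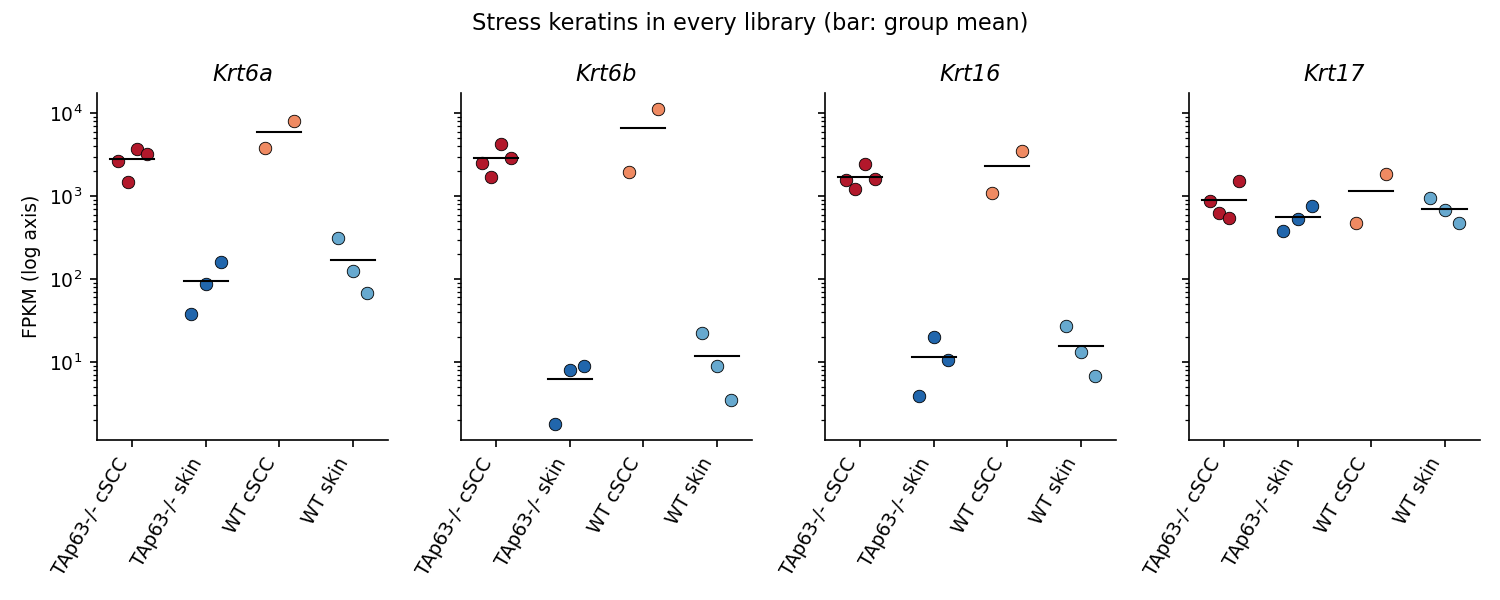
FPKM of each stress keratin (log axis) in every library, 1 point per library and a bar at the group mean, with cSCC left of skin of the same genotype. Krt6a, Krt6b and Krt16 form separate tumour and skin levels, with tumours at 1085 FPKM or more, while Krt17 spans 545.4 to 1525 in TAp63-/- cSCC against 383.8 to 770.8 in TAp63-/- skin, and 474.5 to 1847 in WT cSCC against 477.1 to 945.6 in WT skin.

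By limma at an adjusted p below 0.05, 3 of the 4 members rose in TAp63-/- cSCC, against 27.2% of 14752 tested genes called in either direction and 13.0% called higher. The same 3 rose in WT cSCC, where 11.4% of genes were called and 4.66% were higher. Both tissues also differed in their makeup, and the part of that in these changes was not tested. Of the 7 tested skeletal muscle genes, 7 of 7 fell in both genotypes, with summed FPKM of 71.4 to 323.1 in TAp63-/- cSCC, 121.4 to 703.7 in WT cSCC, 8125 to 11909 in TAp63-/- skin and 6755 to 8079 in WT skin. Fibroblast genes fell as 6 of 7 in TAp63-/- and 3 of 7 in WT mice, adipocyte genes as 4 of 5 in TAp63-/- and 3 of 5 in WT mice, and melanocyte genes as 4 of 4 in TAp63-/- and 1 of 4 in WT mice, with 0 risen in these lists. Summed FPKM of the fibroblast genes was 793.4 to 2594 in TAp63-/- cSCC, 1131 and 1382 in WT cSCC, 3903 to 8772 in TAp63-/- skin and 2409 to 4864 in WT skin. Rescaling each library to its epithelial panel left all 6 calls of Krt6a, Krt6b and Krt16 in place. With the sex read from the data as a covariate, Krt6a had 5.36 in WT mice with a limma adjusted p of 0.0539, and the other 5 calls held. Sex varied within TAp63-/- cSCC alone, where replicate 1 read as male, so this adjustment rests on that library. In WT mice sex and tissue coincide, so the adjustment cannot separate them there.

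The make-up of the keratins differed between tumour and skin beyond their amount. In skin, Krt17 was the highest of the 4, followed by Krt6a, Krt16 and Krt6b, in 6 of 6 libraries. In tumours Krt6a and Krt6b came first, then Krt16, and Krt17 last, in 6 of 6 libraries. Krt6b led Krt6a in 3 of the 6 tumours, so their order there did not hold across libraries.

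Krt6b made up 48.7%, 53.8%, 53.6% and 46.9% of the summed Krt6a and Krt6b in TAp63-/- cSCC, 33.8% and 58.0% in WT cSCC, 4.49%, 8.54% and 5.32% in TAp63-/- skin, and 6.68%, 6.68% and 4.87% in WT skin. The share was 33.8% or more in each tumour and 8.54% or less in each skin library, and the WT tumours lay on either side of the TAp63-/- tumours. Krt5, which shares more windows with Krt6a than with Krt6b, had 1298 to 1969 FPKM in skin. The part of shared reads in these shares was not tested. Tumours exceeded skin of their genotype by a mean of 42.2 percentage points. A two-sided exact permutation test within genotype gave p = 0.00286, the smallest of 350 arrangements (adjusted p = 0.00572 over 6 such tests).

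Krt16 made up 63.9%, 65.6%, 81.7% and 51.5% of the summed Krt16 and Krt17 in TAp63-/- cSCC, 69.6% and 65.4% in WT cSCC, 0.999%, 3.65% and 1.36% in TAp63-/- skin, and 2.80%, 1.91% and 1.39% in WT skin. By these values tumours held mostly Krt16 and skin mostly Krt17. Krt14, which shares more windows with Krt16 than with Krt17, had 4268 to 14287 FPKM in tumours and 861.6 to 1245 in skin. The part of reads shared with Krt14 in this share was not tested. The mean difference of 64.6 percentage points had the same exact permutation p of 0.00286 (adjusted p = 0.00572).

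All 6 pairs of members changed unequally. On the log2 scale the ratio of Krt6b to Krt17 was higher in tumours by 8.25, Krt16 to Krt17 by 6.63, Krt6a to Krt17 by 4.61, Krt6b to Krt6a by 3.64, Krt16 to Krt6a by 2.02 and Krt6b to Krt16 by 1.62. Each had an exact permutation p of 0.00286, the smallest the design allows, and 0.00286 after adjustment over the 6 pairs. The order of increase was Krt6b, Krt16, Krt6a and Krt17.

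Together the 4 genes took 35.9% to 41.9% of all keratin FPKM in TAp63-/- cSCC, 41.7% and 47.4% in WT cSCC, 3.27% to 7.37% in TAp63-/- skin and 5.02% to 9.80% in WT skin. The tumour share was higher by 34.6 percentage points (exact permutation p = 0.00286, adjusted p = 0.00572). Of all summed FPKM they took 0.641% to 1.40% in TAp63-/- cSCC, 0.946% and 3.15% in WT cSCC, 0.0548% to 0.122% in TAp63-/- skin and 0.0711% to 0.168% in WT skin. The ratio of the type II pair to the type I pair, (Krt6a + Krt6b) over (Krt16 + Krt17), was 1.71 to 2.67 in TAp63-/- cSCC, 3.73 and 3.6 in WT cSCC, 0.102 to 0.218 in TAp63-/- skin and 0.147 to 0.346 in WT skin.

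**Figure D2:**
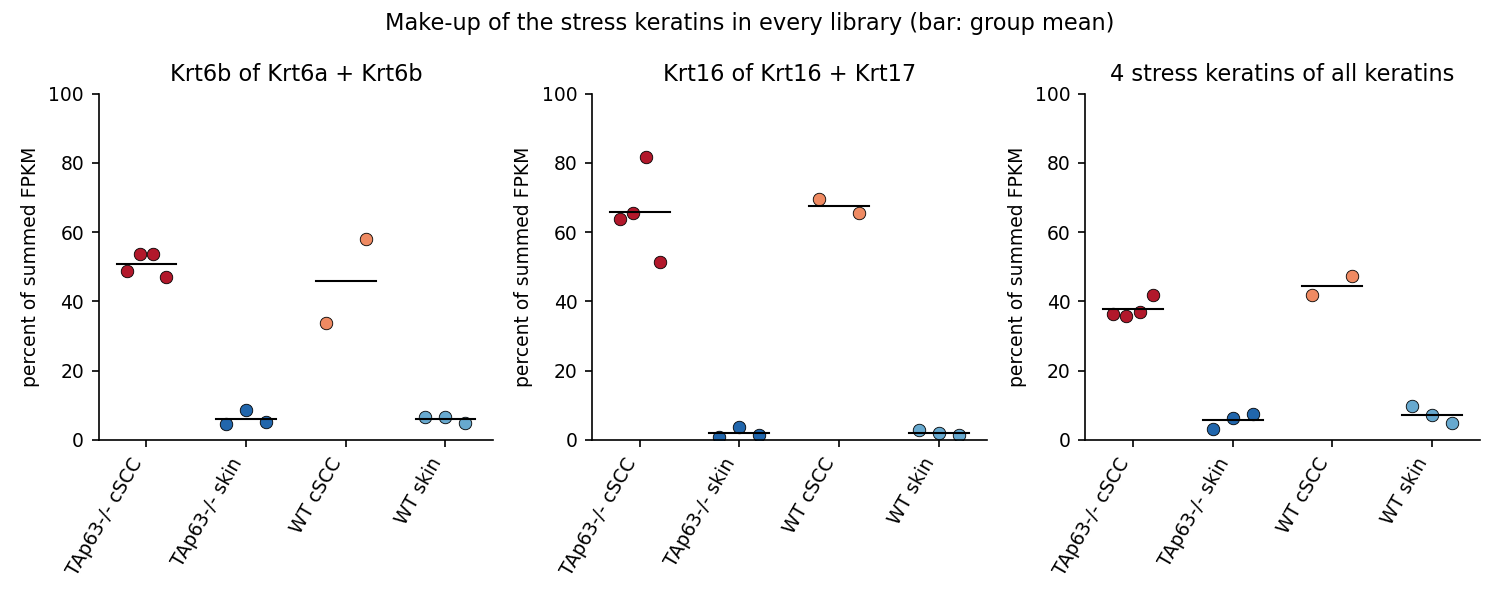
Percent of summed FPKM in every library for Krt6b within the keratin 6 pair, Krt16 within the type I pair, and the 4 genes within all keratins, with points for libraries and bars for group means. All 3 shares separate tumours from skin, with Krt6b at 33.8% or more in tumours and 8.54% or less in skin.

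None of the 4 keratins differed between the genotypes past the test, in tumours or in skin. In tumours Krt6a averaged 2776 ± 969.8 FPKM in TAp63-/- cSCC (SD, n = 4) and 5963 ± 2982 in WT cSCC (SD, n = 2), a log2 change of -1.09 (SE 0.58, 95% interval -2.46 to 0.28, limma adjusted p = 1). The highest TAp63-/- tumour had 3696 FPKM of Krt6a and the lower WT tumour 3855. How many other genes separate the tumour genotypes in this way was not counted. Leaving out WT cSCC replicate 2 gave a difference of -0.56, and leaving out replicate 1 gave -1.62. Krt6b differed by -0.80 (95% interval -2.64 to 1.04), Krt16 by -0.24 (-1.59 to 1.11) and Krt17 by -0.18 (-1.74 to 1.38), each with an adjusted p of 1. For these 3 genes the WT pair spanned most of the tumour range, since WT cSCC replicate 2 was the highest tumour for each and WT cSCC replicate 1 was the lowest for Krt16 and Krt17. Without WT cSCC replicate 2 their differences turned to 0.46, 0.60 and 0.80. By limma 0 of 14752 genes (0%) were called between the tumour genotypes, and 419 had an unadjusted p below 0.05.

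In skin, Krt6a averaged 95.0 ± 62.1 FPKM in TAp63-/- mice and 169.4 ± 128.6 in WT mice (SD, n = 3 each), a log2 change of -0.78 (95% interval -2.55 to 1.0, adjusted p = 0.923). Krt6b differed by -0.69 (-2.54 to 1.17, adjusted p = 0.926), Krt16 by -0.46 (-2.12 to 1.19, adjusted p = 0.939) and Krt17 by -0.32 (-1.19 to 0.54, adjusted p = 0.926). The ranges of the genotypes overlapped for all 4. By limma 0.0203% of all tested genes were called between the skin genotypes, and none of the 4 was among them. The interaction of genotype with tissue was -0.31 for Krt6a, -0.11 for Krt6b, 0.23 for Krt16 and 0.14 for Krt17, with an adjusted p of 1 for each and 0.0271% of genes called. Both 95% bounds of that interaction lay at -2.52 or above and 2.30 or below, so opposite responses of moderate size were not detectable with these libraries.

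The shares within the keratin pairs did not separate by genotype either. Within tissue, the Krt6b share differed by 2.42 percentage points (TAp63-/- minus WT, two-sided exact permutation p = 0.603) and the Krt16 share by -0.923 (exact p = 0.723). The part of all keratin FPKM taken by the 4 genes was lower in TAp63-/- libraries by 4.2 percentage points (-4.2, exact permutation p = 0.04, adjusted p = 0.06 over the 6 tests), which fails the correction.

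Among the skin libraries Krt6a, Krt6b and Krt17 followed the level of hair genes, while the relation of Krt16 rested on 2 libraries. The hair list holds 13 genes of the hair shaft and inner root sheath, the keratinised layers of a growing follicle. Their summed FPKM was 14.7, 1358 and 3970 in TAp63-/- skin and 5435, 2877 and 452.5 in WT skin. In order from high to low this was the same order of the 6 libraries as for Krt6a and for Krt17. Other genes ran alike: Sprr1b had 0.351, 4.80 and 25.5 FPKM in TAp63-/- skin and 54.8, 18.3 and 3.61 in WT skin. The 4 melanocyte genes summed to 19.8, 85.3 and 185.4 FPKM in TAp63-/- skin and 182.5, 140.7 and 76.5 in WT skin. Both were noticed after their values were seen and were not tested. How many of all tested genes follow the hair genes as closely was not counted, so the relation may not be particular to these keratins. Over the 6 skin libraries, the mean log2 level of the hair genes correlated with Krt6a at Pearson's r = 0.965 (exact permutation p = 0.00417, adjusted p = 0.0104) and Spearman's rho = 1 (exact p = 0.00278, adjusted p = 0.0139).

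For Krt17 the values were r = 0.961 (exact permutation p = 0.00417, adjusted p = 0.0104) and rho = 1 (exact p = 0.00278, adjusted p = 0.0139). For Krt6b they were r = 0.968 (exact permutation p = 0.00278, adjusted p = 0.0104) and rho = 0.943 (exact p = 0.0167, adjusted p = 0.0417). Krt16 gave r = 0.874 (exact permutation p = 0.0208, adjusted p = 0.0417) and rho = 0.771 (exact p = 0.103, adjusted p = 0.147). Krt75, a keratin of the companion layer between the follicle's sheaths, gave r = 0.977 (exact permutation p = 0.00278, adjusted p = 0.0104) and rho = 0.943 (exact p = 0.0167, adjusted p = 0.0417).

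Without the 2 libraries farthest from the median, r was 0.987 for Krt6a, 0.985 for Krt17, 0.995 for Krt75 and 0.891 for Krt6b over the 4 left. It was 0.334 for Krt16, whose relation thus rested on TAp63-/- skin replicate 1 and WT skin replicate 3. The relation was looked for after the values had been seen, p-values were adjusted over the 10 relations computed, and neither genotype holds enough libraries for a value of its own.

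In the 6 tumours the same relation did not pass. Pearson's r was 0.338 for Krt6a (exact permutation p = 0.525), 0.573 for Krt6b (p = 0.239), 0.488 for Krt16 (p = 0.328), 0.752 for Krt17 (p = 0.0903) and 0.870 for Krt75 (p = 0.0347), and the lowest adjusted p was 0.0579. Spearman's rho was -0.0286, 0.0857, 0.257, 0.771 and 0.829 in the same gene order, with exact p of 1, 0.919, 0.658, 0.103 and 0.0583. Without WT cSCC replicate 2 and TAp63-/- cSCC replicate 2, r was -0.209 for Krt6a, -0.05 for Krt6b, -0.0734 for Krt16, 0.906 for Krt17 and -0.00951 for Krt75. The hair genes summed to 17.7, 408.5, 6.46 and 187.6 FPKM in TAp63-/- cSCC and 17.0 and 3758 in WT cSCC. The tumour with most hair signal, WT cSCC replicate 2, was also the tumour with most of each stress keratin.

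With the hair level as a covariate, an alternative added after the values were seen, the genotype differences in skin were -0.09 for Krt6a, 0.04 for Krt6b, 0.12 for Krt16 and -0.01 for Krt17. The tumour-skin change of Krt17 became 1.02 in TAp63-/- mice (limma adjusted p = 0.0562) and 0.87 in WT mice (adjusted p = 0.197), and neither passed. That fit used the same slope on hair level for tumour and skin libraries. Whether a shared slope holds in both tissues was not tested.

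**Figure D3:**
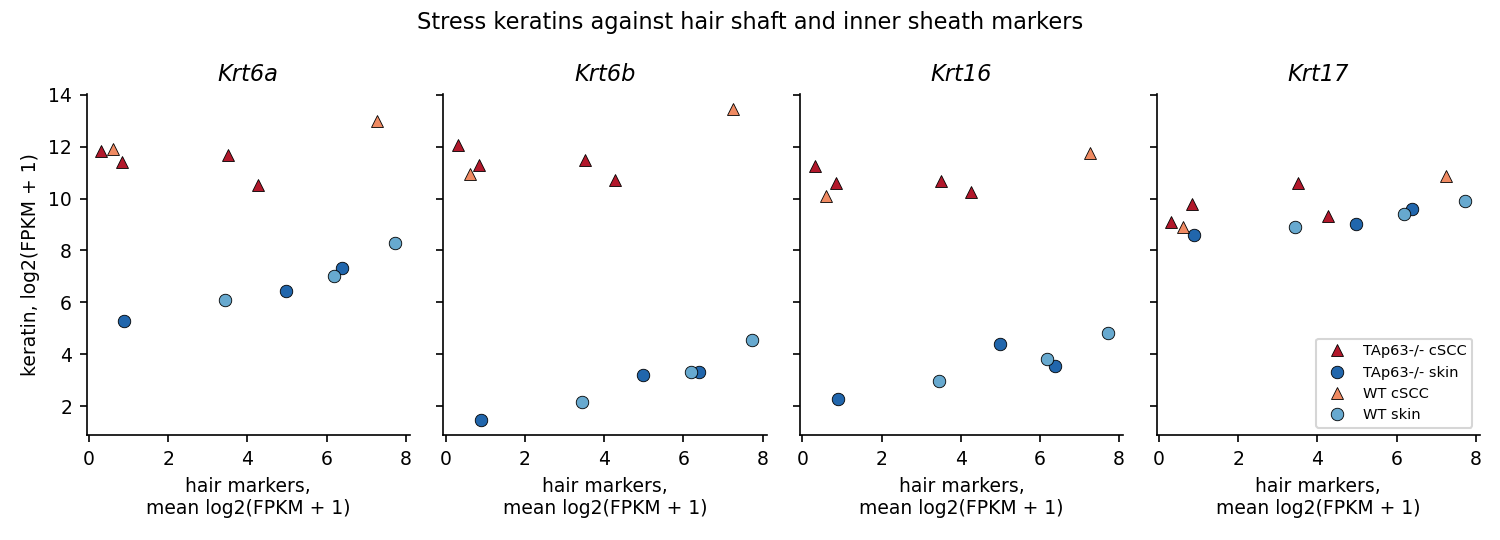
Level of each stress keratin against the mean level of 13 hair shaft and inner sheath genes, both log2(FPKM + 1), with circles for skin and triangles for tumours. In skin the points run upward together (r 0.874 to 0.968), while in tumours Krt6a, Krt6b and Krt16 stay high at any hair level.

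The neighbours of the stress keratins in the genome moved in both directions. On chromosome 15 Krt75 lies on one side of Krt6b and Krt5, the basal type II keratin, on the far side of Krt6a. Krt75 had 2.17, 8.08, 0.138 and 0.956 FPKM in TAp63-/- cSCC, 2.14 and 46.8 in WT cSCC, 17.8, 44.1 and 74.9 in TAp63-/- skin, and 124.5, 75.8 and 24.8 in WT skin. It fell in TAp63-/- mice by 3.82 on the log2 scale (SE 0.97, limma adjusted p = 0.0148) and had -2.36 in WT mice (SE 1.16, adjusted p = 0.21). Krt5 rose by 0.95 in TAp63-/- mice (adjusted p = 0.00896) and had 0.67 in WT mice (adjusted p = 0.118).

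Between Krt75 and Krt6b, the files list an entry named KRT6A in capitals (ENSMUSG00000095241, the predicted gene Gm5478 in GENCODE M21), which is not one of the 4. It had 21.4, 14.1, 60.3 and 33.7 FPKM in TAp63-/- cSCC, 23.9 and 53.4 in WT cSCC, 0.580, 0.832 and 0.856 in TAp63-/- skin, and 2.30, 0.748 and 0.940 in WT skin. Its change was 4.05 in TAp63-/- mice (adjusted p = 0.000117) and 4.04 in WT mice (adjusted p = 0.0013). Of the Krt6a windows 9.96% occurred in it and of the Krt6b windows 9.33%, so its own signal is uncertain.

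On chromosome 11 Krt16 and Krt17 are flanked by Krt14 and Krt42. Krt14 rose by 2.89 in TAp63-/- mice (adjusted p = 0.00079) and 3.06 in WT mice (adjusted p = 0.00467). Krt42 rose by 1.94 (adjusted p = 0.00319) in TAp63-/- and 1.76 (adjusted p = 0.0275) in WT mice. Krt17 was thus the one gene of these 4 neighbours without a call in either genotype.

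**Figure D4:**
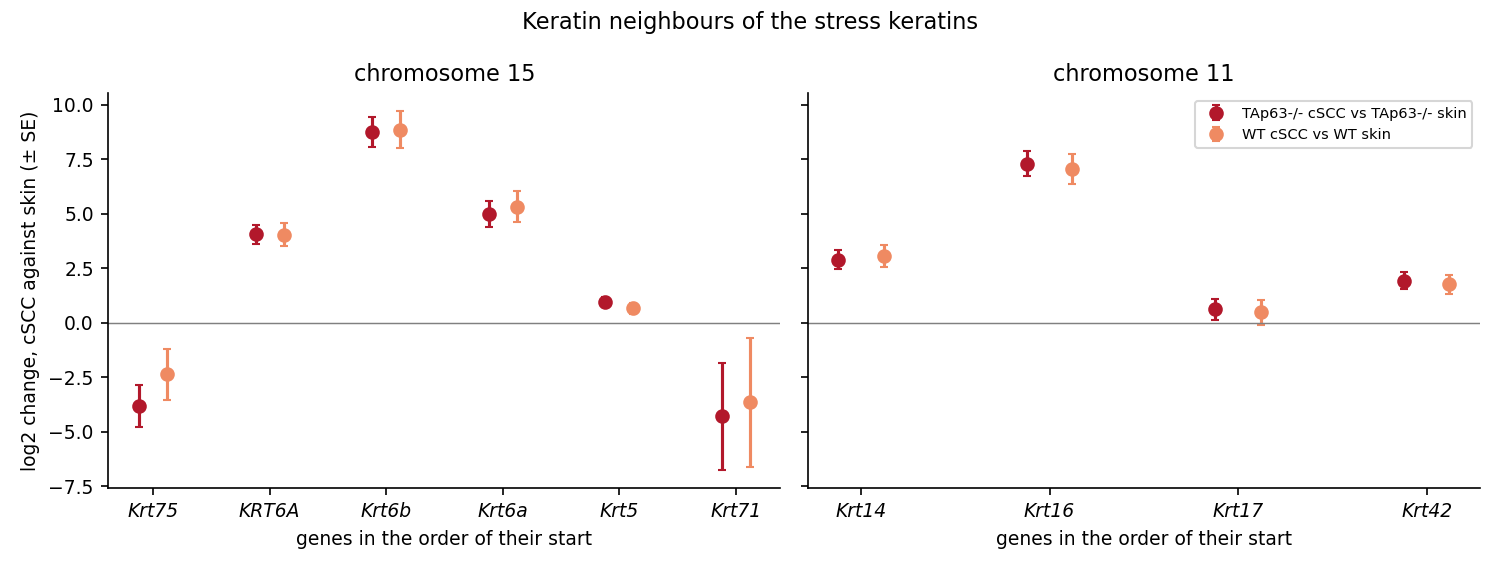
Log2 change of cSCC against skin (limma, ± SE) for keratin neighbours of the stress keratins in the order of their start on each chromosome, TAp63-/- left of WT. Krt6b and Krt6a stand next to each other at 8.74 and 5.0 in TAp63-/- mice, while Krt17 at 0.62 sits between Krt16 at 7.29 and Krt42 at 1.94.

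Outside the 4 members, the genes with the most similar profiles were found by the root-mean-square difference of centred log2(FPKM + 1) over the 12 libraries. Predicted gene models were left out by their symbols. The KRT6A entry, itself a predicted gene, stayed in because of its symbol. For Krt6a these were the KRT6A entry (0.78), Gsta4, a glutathione transferase (0.80), and Sh2d5 (0.88). For Krt6b they were Sprr1b, a cross-linked protein of the cornified envelope (0.91), Stfa2, a cysteine protease inhibitor (1.03), and Lce3c, a late cornified envelope protein (1.39). For Krt16 they were Stfa2 (0.85), Lce3c (0.87) and Stfa1 (1.10). Krt17 was closest to Otop2 (0.29), Nfil3 (0.31) and Tubb2a (0.32). Among the members, Krt6b and Krt16 were closest (0.84), Krt6a and Krt16 differed by 1.20, Krt6a and Krt6b by 1.88, and Krt17 differed from the others by 2.32 to 4.12.

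Genes linked to the same stress setting were counted from lists drawn up with earlier results of these data known. Each count of calls is to be read against the 27.2% of all tested genes called in TAp63-/- mice and the 11.4% called in WT mice. The 18 wound companions are a mixed list of cornified envelope, antimicrobial, adhesion, protease-system and prostaglandin genes. Of them 12 rose and 0 fell in TAp63-/- mice (median log2 change 2.55, against 0.10 over all tested genes) and 11 rose and 0 fell in WT mice (median 2.40, against 0.04). Among those that rose in both genotypes were Cd44 and Itga5, which encode adhesion receptors, Ptgs2, which encodes a prostaglandin enzyme, and Timp1, a protease inhibitor, named after their values were seen. Sprr1b rose by 8.89 in TAp63-/- mice (adjusted p = 0.000112) and 7.65 in WT mice (adjusted p = 0.00273). Defb14, an antimicrobial defensin, rose by 6.86 in TAp63-/- mice (adjusted p = 0.000194) and 5.78 in WT mice (adjusted p = 0.00475). Sprr2d, another envelope protein, rose by 7.71 in TAp63-/- mice (adjusted p = 0.00053) and 7.06 in WT mice (adjusted p = 0.007).

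Of the 7 growth factor genes, the ligands and receptor of the EGFR pathway known to induce these keratins, 4 rose and 1 fell in TAp63-/- mice (median 1.21) and 5 rose and 0 fell in WT mice (median 1.70). Epgn, an EGFR ligand, rose by 4.34 in TAp63-/- mice (adjusted p = 0.000224) and 3.54 in WT mice (adjusted p = 0.00646). Hbegf, another ligand, rose by 3.12 in TAp63-/- mice (adjusted p = 0.000121) and 3.10 in WT mice (adjusted p = 0.00135). Areg, also a ligand, rose by 2.22 in TAp63-/- mice (adjusted p = 0.00371) and 2.18 in WT mice (adjusted p = 0.0215).

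Of the 10 tested inflammatory signals 4 rose in TAp63-/- mice (median 1.47) and 3 in WT mice (median 1.42), with 0 fallen. Il1a, an interleukin stored by keratinocytes, rose by 2.32 in TAp63-/- mice (adjusted p = 0.000124) and 2.94 in WT mice (adjusted p = 0.00044). Il1b rose by 3.26 in TAp63-/- mice (adjusted p = 0.00298) and 3.10 in WT mice (adjusted p = 0.0212). Il1f6, an interleukin 36 gene, rose by 3.27 in TAp63-/- mice (adjusted p = 0.0159) and 3.49 in WT mice (adjusted p = 0.0474). Summed FPKM of 6 immune cell genes was 433.1 to 15839 in TAp63-/- cSCC, 1326 and 1627 in WT cSCC, 401.3 to 726.2 in TAp63-/- skin and 300 to 631.4 in WT skin. S100a8, which also stands among the wound companions, had 15539 of the 15839 FPKM in that highest tumour and was the one gene of the 6 called in either genotype. The other 5 were not called, with log2 changes in TAp63-/- mice of 0.87 for Itgam, -0.09 for Ptprc, -0.61 for Cd68, -0.66 for Cd3e and -1.34 for Lyz2.

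Of the 8 AP-1 factors, 2 rose and 0 fell in TAp63-/- mice (median 0.17) and 1 rose and 2 fell in WT mice (median -0.81). The count in TAp63-/- mice is near the 27.2% of all genes. Fosl1 rose by 3.00 in TAp63-/- mice (adjusted p = 2.1e-05) and 3.57 in WT mice (adjusted p = 0.000184). Fosb had -1.33 in TAp63-/- mice (adjusted p = 0.0631) and fell by 3.06 in WT mice (adjusted p = 0.00793). Junb rose by 1.44 in TAp63-/- mice (adjusted p = 0.00145) and had 0.92 in WT mice (adjusted p = 0.06).

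Of 8 genes of NRF2, a stress-response factor, and its targets, 3 rose and 1 fell in TAp63-/- mice (median 0.67) and 2 rose and 0 fell in WT mice (median 0.83). Nfe2l2, which encodes NRF2, rose by 0.82 in TAp63-/- mice (adjusted p = 0.0139) and 0.99 in WT mice (adjusted p = 0.0269). Hmox1, a haem oxygenase, rose by 1.37 in TAp63-/- mice (adjusted p = 0.0232) and 1.85 in WT mice (adjusted p = 0.0272). Srxn1 rose by 0.87 in TAp63-/- mice (adjusted p = 0.0432) and had 0.88 in WT mice (adjusted p = 0.119).

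Of the 9 downstream factors, 3 rose in TAp63-/- mice (median 1.0) and 0 were called in WT mice (median 0.65). Both counts are near the shares over all genes. Socs3, a cytokine feedback inhibitor, rose by 1.56 in TAp63-/- mice (adjusted p = 0.00274) and had 1.17 in WT mice (adjusted p = 0.0508). Stat3 rose by 0.68 in TAp63-/- mice (adjusted p = 0.0166) and had 0.69 in WT mice (adjusted p = 0.0595). Myc had 1.07 in TAp63-/- mice (adjusted p = 0.0652) and 0.99 in WT mice (adjusted p = 0.196).

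Of 4 hedgehog pathway genes 1 fell in each genotype, a count near the background share in TAp63-/- mice, with medians of -1.04 in TAp63-/- and -1.58 in WT mice. Ptch1, the hedgehog receptor, fell by 1.45 in TAp63-/- mice (adjusted p = 0.00902) and fell by 1.84 in WT mice (adjusted p = 0.0145). Gli1, a transcription factor of the pathway, had -1.24 in TAp63-/- mice (adjusted p = 0.155) and -1.72 in WT mice (adjusted p = 0.153). Hhip, which binds the hedgehog ligand, had -0.83 in TAp63-/- mice (adjusted p = 0.106) and -1.44 in WT mice (adjusted p = 0.0513).

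Of 7 partner keratins, the basal and suprabasal keratins of the normal epidermis, 2 rose and 3 fell in TAp63-/- mice and 1 rose and 2 fell in WT mice. Krt77 fell in both, with a log2 change of -8.12 in TAp63-/- mice (adjusted p = 2.48e-05) and -5.94 in WT mice (adjusted p = 0.00167). Krt15, a keratin of basal and bulge cells, fell with -4.46 (adjusted p = 6e-05) in TAp63-/- and -3.64 (adjusted p = 0.00211) in WT mice. Of 7 tested keratins related to the members, not all of them neighbours in the genome, 2 rose and 3 fell in TAp63-/- mice and 2 rose and 1 fell in WT mice. Krt80 fell with -2.33 (adjusted p = 0.00142) in TAp63-/- and -1.94 (adjusted p = 0.022) in WT mice. Krt13, a keratin of oral and oesophageal epithelium, rose in both genotypes (adjusted p = 0.0241 in TAp63-/- and 0.0435 in WT mice), with 1.42 to 14.9 FPKM in TAp63-/- cSCC, 1.83 and 14.8 in WT cSCC, 0.0853 at most in TAp63-/- skin and a listed 0 in all WT skin libraries.

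Follicle genes gave calls in 1 of their 2 lists. Of 7 genes of the outer root sheath and companion layer, 5 fell in TAp63-/- mice and 3 in WT mice, with 0 risen, and their summed FPKM was 33.8 to 69.6 in TAp63-/- cSCC, 79.9 and 144.6 in WT cSCC, 209.7 to 268.4 in TAp63-/- skin and 218 to 297.6 in WT skin. Lgr5, a follicle stem cell marker, fell by 1.78 in TAp63-/- mice (adjusted p = 0.00146) and fell by 1.85 in WT mice (adjusted p = 0.00805). Sox9, a factor of the outer root sheath, fell by 1.56 in TAp63-/- mice (adjusted p = 0.0106) and had -0.21 in WT mice (adjusted p = 0.795). In WT mice the other calls of this list were Lhx2 (-2.46, adjusted p = 0.0064) and Cd34 (-1.51, adjusted p = 0.039). Of the 13 hair shaft and inner sheath genes 0 were called in either genotype, with medians of -1.65 in TAp63-/- and -1.54 in WT mice. None of these lists had a call by limma between genotypes or in the interaction, where 444 genes had an unadjusted p below 0.05 for the interaction and 738 in skin.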

How the data were processed

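RNA was sequenced from 12 mouse libraries. TopHat2 2.0, Cufflinks 2.0 and mm10 are named in the submitters' processing notes. Values as deposited were taken to be FPKM, which those notes do not name; quantile normalization by the authors was inferred from the sorted values, 100.0% of which lay within 1% of each other across libraries. Library sums of 780180 to 780251 FPKM say nothing of depth. The 37924 entries gave 34303 symbols, those with several entries summed (272).

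The 14752 genes that reached 1 FPKM in 2 or more libraries were fitted as log2(FPKM + 1), using limma 3.58.1 (R 4.3.3) and its trend of variance on level; fold changes are on that scale and understate low genes. Tumour-skin contrasts and the interaction used all 12 libraries, genotype contrasts the 6 of 1 tissue. P-values were two-sided and Benjamini-Hochberg adjusted over all tested genes; an adjusted p below 0.05 was called. Shares and ratios were compared by exact permutation within strata. The procedures were tested on simulated data.

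Identity and shared windows of 50 bases came from GENCODE M21 transcripts on GRCm38. The deposited FPKM do not state how shared reads were assigned or whether strand was used; an antisense entry overlaps Krt6a.

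Named genes were the members, Trp63, the 3 most alike tested genes for each member, and up to 3 of smallest p per list. Symbols of predicted gene models were left out of the search for alike genes. Cell type marker lists had no such rule. The genes named from them, Lgr5 and Sox9 among them, and the genome neighbours were chosen outside it. Members and lists were chosen with earlier results of these data known. Alternatives covered the pseudocount, the filter, rescaling, weights, sex, the libraries in the fit and each library left out.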

Additional observations from a re-analysis of the deposited data

Results flagged for a closer look

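The 4 stress keratins took 36.5%, 35.9%, 36.8% and 41.9% of all keratin FPKM in the TAp63-/- tumours. Replicate 4, at 41.9%, stood apart from the other 3 by Dixon's criterion for 4 samples. This was 1 flag among 11 measures, all of this group of libraries. Chance flags about 1 in 20 separate groups, but these measures overlap, so that rate does not carry over to them. The same tumour had the most Krt17 of its group, 1525 FPKM.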

How the results depend on the processing

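The calls of Krt6b and Krt16 between tumour and skin held under every alternative run, with log2 changes of 7.60 to 10.10 and 6.22 to 7.91. Krt6a lost its WT call only with sex as a covariate (5.36, limma adjusted p = 0.0539), whose estimate rests on TAp63-/- cSCC replicate 1. That covariate also moved the count of called genes to 1939 in TAp63-/- and 255 in WT mice, and a pseudocount of 0.1 moved it to 5 between the skin genotypes. Between the tumour genotypes the count was 9 with no filter and 1 with all 12 libraries in the fit.

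Directions turned only for differences that never passed. These were Krt17 between tumour genotypes with array weights (0.19) or hair level (0.22), Krt6b (0.04) and Krt16 (0.12) between skin genotypes with hair level, and the interaction of Krt6b with a pseudocount of 0.1 (0.00), of Krt16 with array weights (-0.08) and of Krt17 with epithelial rescaling (-0.06). The cause was not tested.

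Leaving out each library in turn gave -0.50 to 1.46 for Krt17 in WT mice. Between tumour genotypes it gave -2.05 to 0.46 for Krt6b, -1.08 to 0.60 for Krt16 and -1.16 to 0.80 for Krt17, and between skin genotypes -0.95 to 0.10 for Krt16. The interaction ran from -0.90 to 0.22 for Krt6a, -1.36 to 1.14 for Krt6b, -0.62 to 1.07 for Krt16 and -0.84 to 1.12 for Krt17. Counts of called genes were 2432 to 4446 in TAp63-/- and 464 to 1907 in WT mice, 0 to 11 between tumour genotypes, 3 to 8 between skin genotypes and 1 to 15 for the interaction. The genotype difference was -3.64 to 8.48 for the Krt6b share, -3.6 to 1.44 for the Krt16 share and -5.62 to -2.78 for the share of all keratins.

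No paired analysis was possible because the labels give the groups no shared replicate numbers, and tumour and skin came from mice of different age. The 2 WT tumours, which differed by up to 5.67-fold (Krt6b), limit every comparison that uses them, and depth is unknown.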
